A study of Mus musculus with 12 samples.

Results

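Hemoglobin is the oxygen carrier of red blood cells, and 5 genes for its synthesis were followed in CT-26 tumors. Hba-a1 and Hba-a2 code for alpha globin, Hbb-bs and Hbb-bt code for beta globin, and Alas2 codes for the erythroid form of the enzyme that starts heme synthesis. They were chosen by name, through the mouse Ensembl identifiers of the deposited files, and they are 5 of the 30630 genes listed. All 5 passed the filter on low values, which required at least 0.1 FPKM in at least 6 tumors and was met by 19018 genes.

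An adult hemoglobin molecule joins a pair of alpha and a pair of beta globin chains, and each chain holds one heme. Globin and Alas2 messenger RNA is made at high levels by erythroid precursors, which in the adult mouse lie mainly in the bone marrow and the spleen. Mouse red cells lose their nucleus, and young red cells in the circulation, the reticulocytes, still carry globin RNA, so that any tissue taken with its blood holds some of it.

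CT-26 is a mouse colon carcinoma cell line. It was injected with Matrigel under the skin of the right flank of male BALB/c mice that were 4 to 6 weeks old on purchase, so the mice of both groups bore tumors of a single line. The control group did not swim. Mice of the swimming group had 2 swims daily of at most 30 min each, 6 days per week, and the experiment lasted 3 weeks. RNA-Seq was done on 12 tumors, 6 from each group, after ribosomal RNA had been removed. Each label names a single tumor, and the sources used here do not say how blood was removed from the tumors before RNA was extracted. Tumors are named by group and number below.

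Values are FPKM, which is the number of fragments divided by the length of the gene and by the depth of the library. The numbers of reads are not in these values, so the absolute depth is unknown. Relative depth, taken from the steps between low values, ranged from 0.693 in control 2 to 1, and the sum of FPKM ranged from 380139 to 407109. Between 22293 and 23974 genes were above 0 per tumor. Of the markers of colon epithelium, Epcam, Cdx2 and Vil1 had median levels of 0.0286, 0.0730 and 0.0325 FPKM over the 12 tumors, while the keratin Krt20 ranged from 99.8 to 194 FPKM. In whole tumors, fewer cells of a type and less RNA per cell cannot be told apart.

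In the reference genome the alpha globin genes are a nearly identical pair, and so are the beta globin genes. This bears on how their values can be read one by one. On GRCm38, Hba-a1 (ENSMUSG00000069919) lies at chr11:32283511-32284465 and Hba-a2 (ENSMUSG00000069917) at chr11:32296489-32297298, both on the plus strand. Hbb-bs (ENSMUSG00000052305) lies at chr7:103826534-103828096 and Hbb-bt (ENSMUSG00000073940) at chr7:103812524-103813996, both on the minus strand. The coding sequences of Hba-a1 and Hba-a2 are 426 bases long and differ at 1 base, C381T, counted from the first base of the start codon. Those of Hbb-bs and Hbb-bt are 441 bases long and also differ at 1 base, C417T. Both bases are the third of their codon, 127 in alpha and 139 in beta globin. The 30 bases around each difference are shown 5′ to 3′ on the strand of the gene, with the differing base in capitals. In the reference genome these capitals are the only coding letters that tell the members of a pair apart.
Hba-a1, chr11:32284329-32284358, plus strand: catgcctctctggaCaaattccttgcctct
Hba-a2, chr11:32297146-32297175, plus strand: catgcctctctggaTaaattccttgcctct
Hbb-bs, chr7:103826677-103826706, minus strand: gtggctggagtggcCgctgccctggctcac
Hbb-bt, chr7:103812668-103812697, minus strand: gtggctggagtggcTgctgccctggctcac

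Outside these bases the reference transcripts of a pair can be told apart mostly in their untranslated ends. The longest run that the Hba-a1 and Hba-a2 transcripts share is 415 bases, and that of the Hbb-bs and Hbb-bt transcripts is 430 bases. Of all stretches of 100 bases in the Hba-a1 transcript, 56.5% occur letter for letter in the Hba-a2 transcript, and 62.6% of those in Hbb-bs occur in Hbb-bt. Reads from these shared stretches cannot be placed at one gene of a pair by their letters, and how the quantification with StringTie divided them is part of the deposited values. BALB/c mice carry another beta globin haplotype than the reference strain, and the names Hbb-bs and Hbb-bt are those of the reference. The levels given for them are levels of reads placed at these reference genes. Alas2 (ENSMUSG00000025270, chrX:150547375-150570638, plus strand) has no such copy among the members. Some of its exons overlap exons of Apex2 on the other strand, and whether strand was used in the quantification is not given in the sources used here.

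The promoters of the members are given as a description of their sequences. Whether these sequences bear on the levels in the tumors was not tested. The 250 bases before each start in RefSeq (GRCm38.p6) were searched for 4 short motifs. GATAA is the core of sites for the erythroid factor GATA1, CACCC that of sites for KLF1, CCAAT is a common promoter box, and TATAA marks the TATA box. The first 3 were searched on both strands and TATAA on the strand of the gene. Motifs are in capitals. On the other strand GATAA appears as TTATC, the KLF1 motif as GGGTG, and the CCAAT box as ATTGG. The Hba-a2 window shares a run of 247 bases with that of Hba-a1 and is not printed.
Hba-a1, chr11:32283422-32283671, plus strand: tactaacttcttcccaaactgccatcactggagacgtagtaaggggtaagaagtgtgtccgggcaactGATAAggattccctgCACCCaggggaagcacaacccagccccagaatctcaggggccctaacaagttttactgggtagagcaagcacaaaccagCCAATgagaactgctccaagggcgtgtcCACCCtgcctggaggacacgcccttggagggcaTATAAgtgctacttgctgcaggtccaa
Hbb-bs, chr7:103827929-103828178, minus strand: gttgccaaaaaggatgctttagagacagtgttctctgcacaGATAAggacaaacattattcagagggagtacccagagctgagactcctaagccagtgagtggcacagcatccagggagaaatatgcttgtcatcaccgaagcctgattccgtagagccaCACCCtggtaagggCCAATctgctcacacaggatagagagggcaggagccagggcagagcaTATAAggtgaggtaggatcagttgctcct
Hbb-bt, chr7:103813924-103814173, minus strand: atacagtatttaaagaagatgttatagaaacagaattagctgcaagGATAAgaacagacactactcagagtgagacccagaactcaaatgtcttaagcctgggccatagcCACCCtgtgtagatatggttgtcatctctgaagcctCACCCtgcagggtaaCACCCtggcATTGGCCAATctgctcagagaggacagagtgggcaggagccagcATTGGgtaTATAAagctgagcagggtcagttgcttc
Alas2, chrX:150547167-150547416, plus strand: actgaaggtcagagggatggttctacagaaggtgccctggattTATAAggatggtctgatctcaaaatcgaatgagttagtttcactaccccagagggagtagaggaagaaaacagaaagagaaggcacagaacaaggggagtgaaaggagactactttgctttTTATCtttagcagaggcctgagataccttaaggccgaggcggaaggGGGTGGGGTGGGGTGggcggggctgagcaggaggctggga

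GATAA and CACCC occurred in the windows of all 5 members, against 22.6% and 52.0% of the 32851 windows of all genes. CCAAT occurred in the 4 globin windows and not in that of Alas2, against 33.8% of all windows. TATAA began 27 to 30 bases before the start in the 4 globin genes and 207 bases before it in Alas2, against 16.0% of all windows with TATAA anywhere. In Hbb-bt, 2 of the CCAAT matches stand side by side on opposite strands, and in Alas2 3 CACCC matches follow each other. These matches describe letters in a window and are not binding sites. The Hba-a1 and Hba-a2 windows are nearly the same sequence, so their matches are not separate observations. The Hbb-bs and Hbb-bt windows share a run of at most 14 bases, so this pair, unlike the alpha globin pair, differs before the start. Some GENCODE transcript models of the members begin inside these windows.

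All 4 globin genes were among the well expressed genes of the tumors. By mean level over the 12 tumors, Hbb-bs ranked 369th of all genes listed with 140.5 FPKM, Hba-a1 ranked 496th with 104 FPKM, Hba-a2 ranked 660th with 81.5 FPKM, and Hbb-bt ranked 715th with 76.2 FPKM. Alas2 was far lower, with 1.67 FPKM and rank 11510. Hbb-bs had the highest level of the members in 12 of 12 tumors, and Hba-a1 was above Hba-a2 in 12 of 12. Hba-a2 was above Hbb-bt in 8 of 12 tumors, with a ratio between 0.869 and 1.39, so these neighbours in the order did not differ beyond their spread. The ratio of Hbb-bs to Hba-a1 lay between 1.08 and 1.72.

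Levels of the members differed more between tumors than those of nearly all other genes. The sum of the 4 globin genes was lowest in swimming 2 with 151 FPKM and highest in swimming 4 with 1234 FPKM, which is 0.0387% and 0.312% of all FPKM of these tumors. Among the control tumors the sum ranged from 246 to 598 FPKM. The highest level was 8.44 times the lowest for Hba-a1, 7.65 times for Hba-a2, 7.92 times for Hbb-bs, 8.84 times for Hbb-bt and 6.87 times for Alas2. The SD of the log2 values over the 12 tumors was larger than that of 99.1% of the genes tested for Hba-a1, Hba-a2 and Hbb-bs, 99.3% for Hbb-bt and 96.8% for Alas2.

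Hbb-bs, the more strongly expressed beta globin gene, had levels of 96.0, 147 and 179 FPKM in the control group (lowest, median and highest of 6 tumors). In the swimming group these were 52.0, 94.97 and 412 FPKM. The highest value belonged to swimming 4, while 3 of the 6 swimming tumors were below every control tumor and the groups overlapped. Its mean was 141 ± 35.5 FPKM in control and 140.2 ± 136 FPKM in swimming tumors (SD, n = 6 each).

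The second beta globin gene, Hbb-bt, had levels of 44.4, 73.7 and 119 FPKM in the control group. In the swimming group they were 28.3, 44.9 and 250.1 FPKM, again with swimming 4 highest and 3 tumors below every control tumor. The means were 74.9 ± 25.6 FPKM and 77.5 ± 85.4 FPKM (SD, n = 6 each).

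Of the alpha globin genes, Hba-a1 had levels of 67.3, 93.2 and 166 FPKM in control and 38.4, 71.9 and 324 FPKM in swimming tumors. Control 1 was the highest control tumor, swimming 4 was the highest of all, and 3 swimming tumors were below every control tumor. For Hba-a2 these were 38.6, 72.9 and 134 FPKM against 32.3, 55.2 and 247 FPKM. Control 2 was low for this gene, and 1 swimming tumor was below it. Means were 98.6 ± 35.6 and 109.8 ± 108 FPKM for Hba-a1, and 76.7 ± 31.8 and 86.2 ± 81.1 FPKM for Hba-a2 (SD, n = 6 each).

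Alas2, whose product makes the precursor of heme in erythroid cells, had levels of 1.21, 1.42 and 2.52 FPKM in the control group. In the swimming group they were 0.781, 1.13 and 5.37 FPKM. Here 5 of the 6 swimming tumors were below every control tumor, and swimming 4 was above every one. All 5 members had their highest level in swimming 4, at 1.84 to 2.30 times the second highest tumor, and 4 of the 5 had their lowest level in swimming 2.

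**Figure D1:**
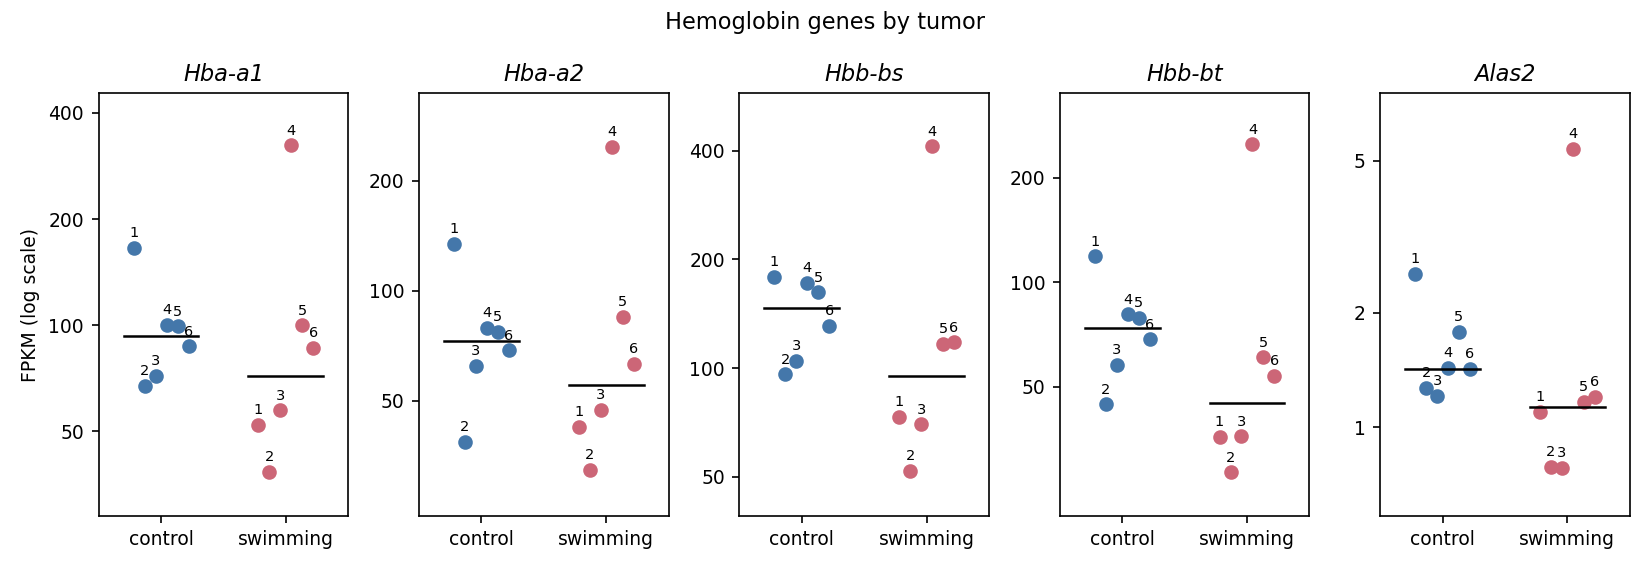
FPKM of the 5 members on a log axis in each of the 6 control and 6 swimming tumors, with the tumor number above each point and the median as a black line. Swimming 4 is the highest point in every panel, and the other swimming tumors sit mostly at or below the control median.

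The comparison of the groups asks whether swimming went with a different level of hemoglobin RNA in the tumor. With all 12 tumors no member passed the test. In limma on log2(FPKM + 1), 0 of the 5 members had an unadjusted p below 0.05, against 5.56% of the genes tested (1058 of 19018), of which 2.46% were lower and 3.11% higher in the swimming group. For 0 members did the groups not overlap, against 0.147% of the genes tested. No gene of the whole table had an adjusted p below 0.05 in this fit.

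Hbb-bs differed by -0.35 on the log2 scale (swimming minus control, SE 0.40, 95% interval -1.22 to 0.52, limma p = 0.399, adjusted p = 0.943, exact permutation p = 0.485). For Hbb-bt the difference was -0.35 (SE 0.44, interval -1.30 to 0.60, limma p = 0.438, adjusted p = 0.944, exact permutation p = 0.526). Hba-a1 differed by -0.18 (SE 0.42, interval -1.09 to 0.73) and Hba-a2 by -0.11 (SE 0.42, interval -1.02 to 0.81), with limma p of 0.675 and 0.807. The difference of Alas2 was -0.09 (SE 0.27, interval -0.67 to 0.50, limma p = 0.756, exact permutation p = 0.838), and with a pseudocount of 0.01 in place of 1 it was -0.24. Exact permutation tests over the 924 divisions of the tumors into 6 and 6 gave p of 0.736 for Hba-a1 and 0.853 for Hba-a2. Every interval held 0, and the widest, that of Hbb-bt, ran from -1.30 to 0.60, so a difference inside it could not be told from none.

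These differences moved with single tumors. Without swimming 4, 3 of the 5 members were lower in the swimming group at an unadjusted p below 0.05, against 2.17% of the genes tested that were lower, 2.7% that were higher and 4.87% in either direction. Hbb-bs was then at -0.74 on the log2 scale (interval -1.24 to -0.23, limma p = 0.00840, exact permutation p = 0.0325), with a mean of 86.0 ± 29.7 FPKM in the other 5 swimming tumors. Hbb-bt was at -0.78 (interval -1.31 to -0.24, limma p = 0.00803, exact permutation p = 0.0238), with a mean of 42.9 ± 13.7 FPKM. Alas2 was at -0.36 (interval -0.63 to -0.10, limma p = 0.0121, exact permutation p = 0.00866), with a mean of 1.006 ± 0.207 FPKM.

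The alpha globin genes had lower means as well without swimming 4, but did not pass. Hba-a1 was at -0.57 (interval -1.15 to 0.01, limma p = 0.0528, exact permutation p = 0.0952) and Hba-a2 at -0.48 (interval -1.12 to 0.16, limma p = 0.125, exact permutation p = 0.190). The adjusted p of all 5 members was 0.973 in this limma fit, and 0 genes of the table passed after adjustment. Since swimming 4 was left out after its values were seen, and the members vary together, the 3 calls are not separate pieces of evidence. Leaving out other tumors moved the differences in either direction, and none of them passed. Hbb-bs was further below 0 without control 2 (-0.45) or control 3 (-0.43), and Hba-a1 without control 2 (-0.28) or control 3 (-0.26). Some other omissions also moved a difference away from 0, as for Hbb-bs without swimming 6 (-0.38). Others moved the differences towards 0 or past it. Without swimming 2 the difference was 0.04 for Hba-a1, 0.10 for Hba-a2, 0.0028 for Alas2, -0.14 for Hbb-bs and -0.16 for Hbb-bt. It also turned above 0 for Hba-a2 without control 1 (0.07) or swimming 1 (0.02), and for Alas2 without control 1 (0.0054) or swimming 3 (0.0033). Hba-a1 was at -0.02 without control 1 and -0.05 without swimming 1, and Hbb-bt was at -0.20 without control 1.

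**Figure D2:**
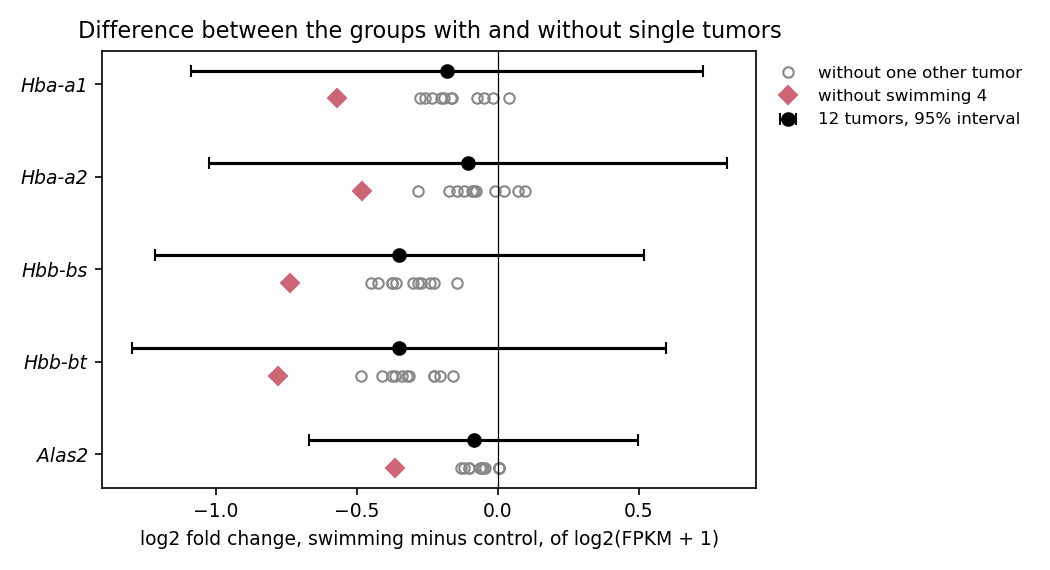
Difference of each member between the groups (log2 of FPKM + 1, swimming minus control) with all 12 tumors and its 95% interval in black, with 1 other tumor left out as open circles, and without swimming 4 as red diamonds. The diamonds lie between -0.78 and -0.36, to the left of every other point of the same gene.

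The members varied together from tumor to tumor. Over the 12 tumors the log2 level of Hbb-bs had a Pearson's r of 0.984 with Hbb-bt, 0.970 with Hba-a1, 0.942 with Hba-a2 and 0.924 with Alas2. The Spearman's rho were 0.972, 0.951, 0.902 and 0.923. Each permutation p adjusted over 11 relations was 2.75e-05 for r, which came from the smallest p that 100000 permutations can give, 1e-05. Without swimming 4 and swimming 2, the tumors farthest from the median of Hbb-bs, r was 0.959 with Hbb-bt, 0.903 with Hba-a1, 0.834 with Hba-a2 and 0.831 with Alas2. Within the control group r was 0.922, 0.864, 0.863 and 0.744 in the same order, and within the swimming group it was 0.994, 0.996, 0.989 and 0.957. The members of a pair may share reads, whereas alpha globin, beta globin and Alas2 are different sequences.

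**Figure D3:**
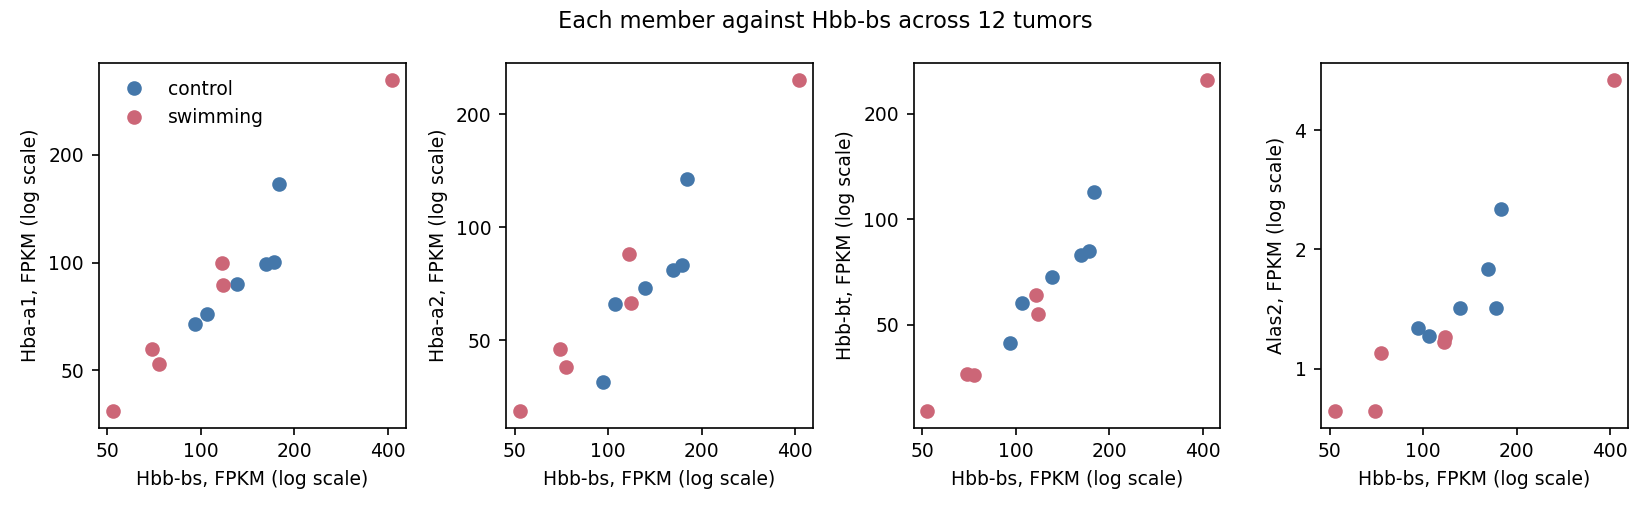
FPKM of Hba-a1, Hba-a2, Hbb-bt and Alas2 against FPKM of Hbb-bs, both on log axes, with 1 point for each of the 12 tumors colored by group. The points form 1 rising band in each panel, with swimming 4 at the upper right end.

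Ratios between members within a tumor do not carry a shared rise or fall, and they varied far less than the levels. Alpha globin summed over both genes was 0.710 to 1.04 times beta globin over the 12 tumors, a range of 1.47 times. Hba-a1 made up 53.6% to 63.6% of alpha globin and Hbb-bt 31.3% to 40.0% of beta globin. Alas2 stood at 3.22 to 5.39 FPKM per 1000 FPKM of globin, and swimming 4 was at 4.35, inside the range of the other tumors.

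The ratio of alpha to beta globin was 0.802 ± 0.109 in control and 0.919 ± 0.0765 in swimming tumors (SD, n = 6 each). It ranged from 0.710 to 1.007 in the control and from 0.864 to 1.04 in the swimming tumors, and all 6 swimming tumors were above the control median. The only control tumor inside the swimming range was control 1. On the log2 scale the groups differed by 0.20, with an exact permutation p of 0.0455 that became 0.182 when adjusted over the 4 ratios compared. Leaving out 1 tumor moved the p to between 0.00216, without control 1, and 0.0952, without swimming 5. It was above 0.05 in 9 of the 12 cases, those without control 2, 3, 4, 5 or 6 or swimming 2, 3, 5 or 6.

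The other ratios did not pass. The share of Hba-a1 was 56.7% ± 3.48 in control and 55.5% ± 1.48 in swimming tumors (exact permutation p = 0.556), with control 2 alone at 63.6%. Control 2 also had the lowest relative depth, and the part of depth in this value was not tested. The share of Hbb-bt was 34.4% ± 3.12 and 34.2% ± 2.20 (exact permutation p = 0.931). The log2 ratio of Alas2 to globin was -7.92 ± 0.21 and -7.90 ± 0.29 (exact permutation p = 0.9004, SD, n = 6 each throughout).

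**Figure D4:**
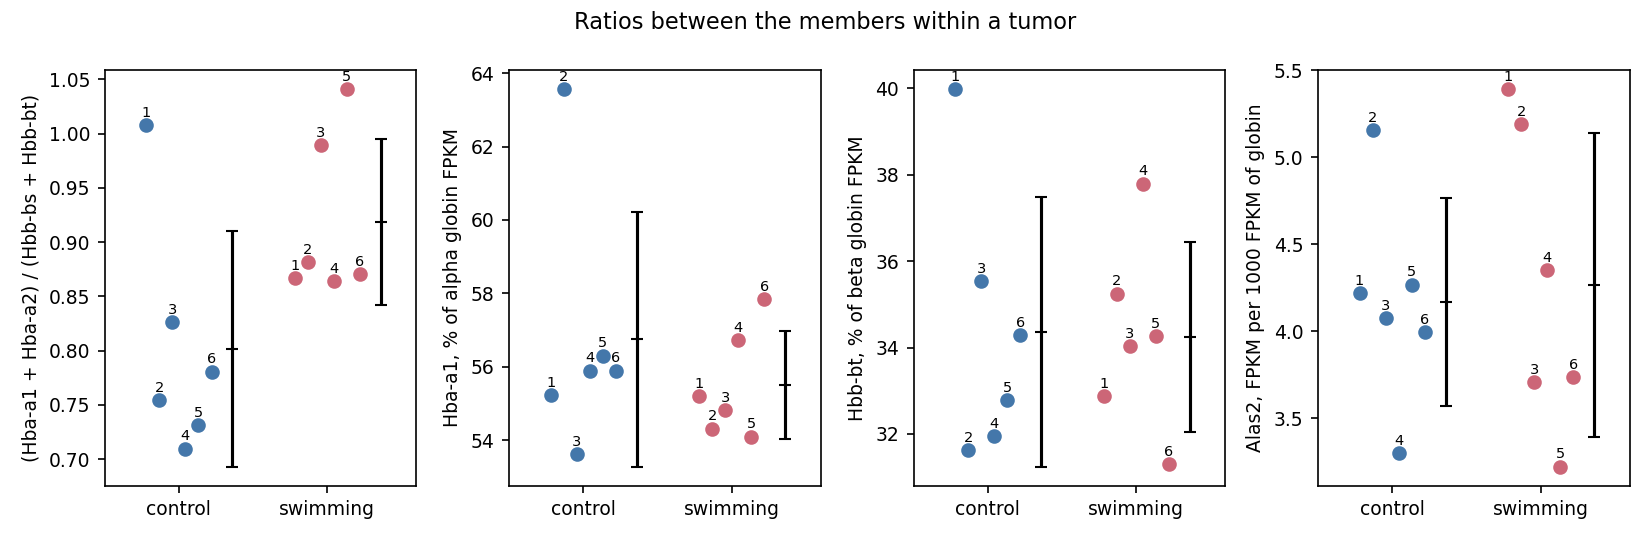
Ratio of alpha to beta globin, shares of Hba-a1 and Hbb-bt in their pair in percent, and Alas2 per 1000 FPKM of globin in each tumor, with the tumor number above each point and mean ± SD beside it. The vertical axes do not start at 0. In the first panel all swimming tumors lie at 0.864 or above, and of the control tumors only control 1 does.

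Most other genes of the red cell membrane and late erythroid cells were low. Of 31 genes in this list, 26 were in the files, 16 stayed below 1 FPKM in all tumors, and 5 were at 0 in at least 6 tumors. Slc4a1, the anion exchanger band 3, ranged from 0 to 0.0791 FPKM and was highest in swimming 4. Epb42 and Rhag were each at 0 in 11 tumors. Aqp1 was the highest of the list with 178 to 247 FPKM. It codes for a water channel that red cells share with endothelium and other cells, and swimming 4 was its highest tumor. Of the 16 genes of the list that were tested, 0 were higher and 0 lower in swimming tumors, against 3.11% and 2.46% of all genes tested. The median difference was -0.03 against 0.00 over all genes tested.

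The factors that drive erythroid genes were also low. Gata1 reached 0.109 FPKM and was at 0 in 5 tumors, Klf1 reached 0.157 FPKM, and Gfi1b was at 0 in 8 tumors. Broadly used partners were present, with 21.5 to 28.6 FPKM for Ldb1 and 4.33 to 8.04 FPKM for Lmo2. The transferrin receptor Tfrc ranged from 7.53 to 13.7 FPKM and the erythropoietin receptor Epor from 0.348 to 0.734 FPKM. Of the 16 regulators, 9 could be tested. Of these, 0 were higher and 0 lower, against 3.11% and 2.46% of all genes tested, and their median difference was 0.04.

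The other genes of heme synthesis did not follow the globins in their range. All 12 were tested, with 0 higher and 0 lower, against 3.11% and 2.46% of all genes tested, and a median difference of -0.01. Alas1, the form of the first enzyme found in all tissues, ranged only from 2.55 to 3.86 FPKM and was above Alas2 in the mean of each group, with 3.17 against 1.61 FPKM in control and 3.08 against 1.73 FPKM in swimming tumors. The mitochondrial carrier Slc25a39 (26.9 to 35.8 FPKM), Cpox (24.2 to 31.5 FPKM) and Fech (16.9 to 23.2 FPKM), the enzyme that inserts iron, had narrow ranges. The summed level of the list was 220.3 to 244 FPKM in the control and 219.8 to 236 FPKM in the swimming group, lowest in swimming 4.

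**Figure D5:**
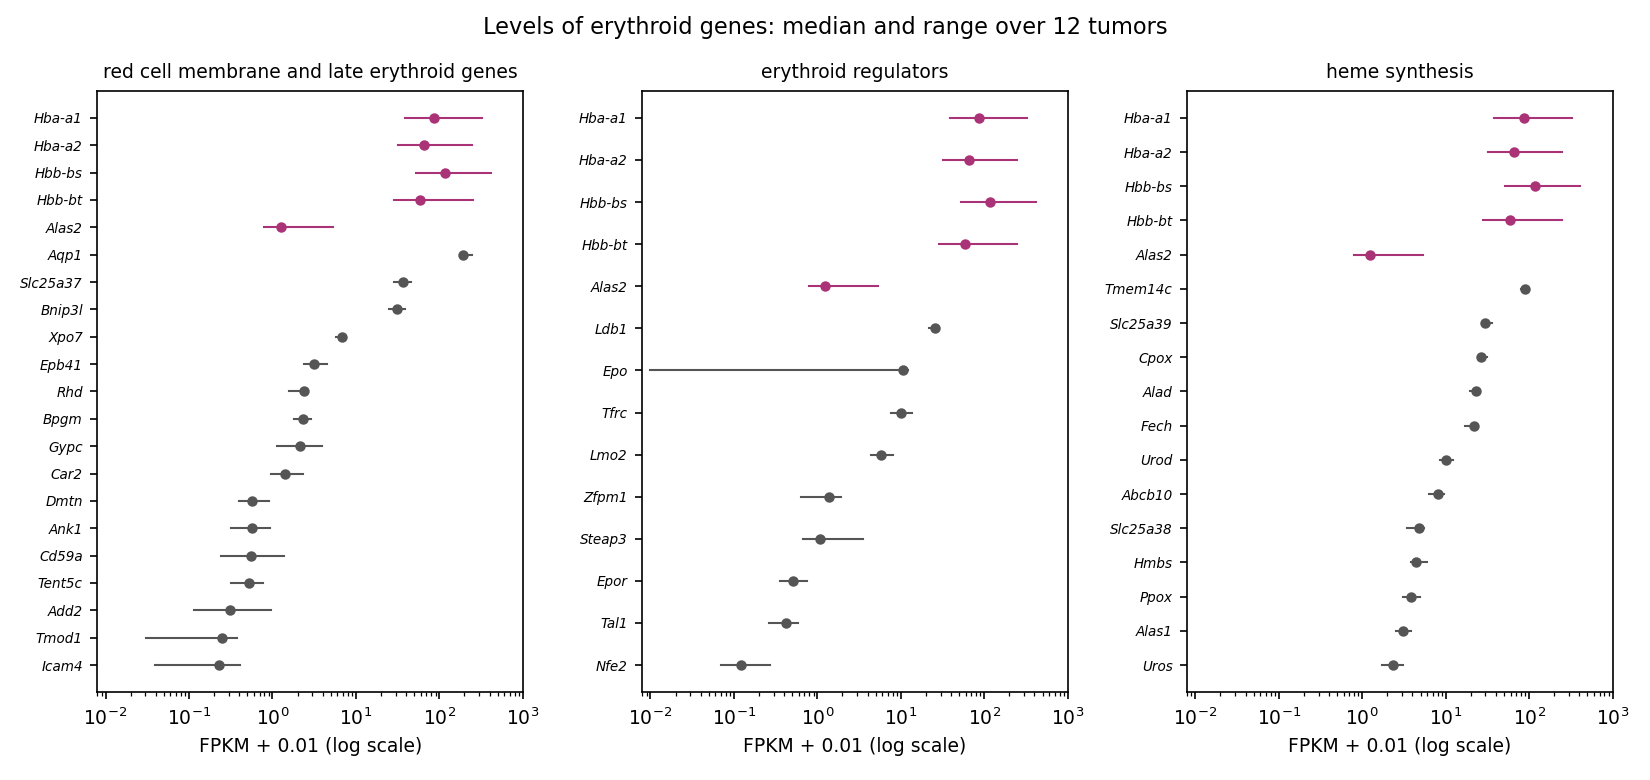
Median (point) and range (line) over the 12 tumors of FPKM + 0.01 on a log axis for the 5 members in purple and for red cell membrane and late erythroid genes, erythroid regulators and other heme synthesis genes in gray, drawn only for genes that passed the filter on low values. The globins stand near 100 FPKM with wide ranges, and of the gray genes Aqp1 alone has a median above 100 FPKM.

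Among the other globin genes, 7 of 14 were in the files and 5 were tested. Of these, 0 were higher and 1 lower, against 3.11% and 2.46% of all genes tested. Hbb-bh1, a beta-like globin of the embryo, had levels of 0.528, 1.16 and 1.94 FPKM in the control and 0.282, 0.435 and 1.42 FPKM in the swimming group (lowest, median and highest of 6). In the swimming group 1 tumor, swimming 4, was above the control median. Its mean was 1.25 ± 0.535 against 0.589 ± 0.420 FPKM (SD, n = 6 each), a difference of -0.50 on the log2 scale (SE 0.17, limma p = 0.0144, adjusted p = 0.889, exact permutation p = 0.0368). The unadjusted limma p of Hbb-bh1 stayed below 0.05 without each of the 12 tumors in turn, between 0.00128 without swimming 4 and 0.0356. No stretch of 50 bases of its reference transcript occurs in those of Hbb-bs or Hbb-bt. Transcripts of the BALB/c haplotype were not compared, so misplaced reads were not tested. Per 1000 FPKM of Hbb-bs, Hbb-bh1 stood at 8.87 ± 3.05 FPKM in the control and 4.97 ± 1.79 FPKM in the swimming group. Cygb and Mb, the globins of connective tissue and muscle, had differences of 0.08 and 0.14 and did not pass.

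Genes that take up hemoglobin and break heme down gave 1 higher and 0 lower of 14 tested, against 3.11% and 2.46% of all genes tested. Their median difference was 0.00, and a single call in so short a list is not read as a trait of the list. The gene that was higher, Flvcr1, codes for a transporter known for carrying heme out of cells. Its mean was 6.55 ± 1.71 FPKM in control and 8.25 ± 0.548 FPKM in swimming tumors (SD, n = 6 each), a difference of 0.32 (limma p = 0.0312, adjusted p = 0.889, exact permutation p = 0.0325), with 6 of 6 swimming tumors above the control median. In limma this call was lost without control 5 or 6, or without swimming 1, 2 or 4, with p between 0.0523 and 0.0731. Hmox1, which opens the heme ring, was lowest of all in swimming 4 with 20.3 FPKM, and its r with Hbb-bs was -0.27 (permutation p adjusted over the 11 relations 0.722). Within the groups the r of Hmox1 had opposite signs, 0.63 in control and -0.44 in swimming tumors (n = 6 each, not tested).

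Markers of other components of blood and tissue are given here because the level of globin RNA can vary with what a tumor piece holds. Over all genes tested, 5.56% had an unadjusted limma p below 0.05 in either direction. Platelet genes had a median difference of -0.05 with 0 of 10 tested passing, neutrophil genes 0.04 with 0 of 7, and endothelial genes 0.04 with 0 of 13. Skeletal muscle genes had 0.47 with 0 of 11, adipocyte genes -0.05 with 0 of 5, fibroblast genes 0.06 with 0 of 9, macrophage genes 0.09 with 0 of 8, and colon epithelium and carcinoma genes -0.08 with 0 of 6. The summed level of platelet genes was 54.5 to 98.0 FPKM in the control and 48.5 to 70.9 FPKM in the swimming group. Swimming 4 was the lowest of all. Most of this sum came from Pf4 (24.1 to 59.6 FPKM) and Selp (12.8 to 31.4 FPKM). Every other gene of the list stayed at 3.64 FPKM or below, so the sum mainly describes Pf4 and Selp. Ppbp ranged from 0.201 to 1.59 FPKM and Tubb1 was at 0 in 10 tumors. The sum is therefore not read as platelet content. Neutrophil genes summed to 19.7 to 47.9 and 17.9 to 46.7 FPKM, and endothelial genes to 61.2 to 115 and 62.3 to 106 FPKM. Swimming 4, with 29.3 and 74.0 FPKM, was inside these ranges, as it was for muscle genes with 80.2 FPKM. Without swimming 4 the lower genes of these lists were Retnlg of the neutrophil list (-0.49) and Krt20 (-0.34), each at an unadjusted limma p below 0.05. Over all genes tested, 2.17% were lower in that fit.

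None of the markers of other cells passed the test of its relation with Hbb-bs over the 12 tumors. The r was -0.12 with Pf4 of the platelet list and 0.12 with S100a8 of neutrophils. It was 0.06 with Pecam1 of endothelium, 0.01 with Acta1 of muscle and 0.13 with Col1a1 of fibroblasts. Each permutation p adjusted over the 11 relations was 0.884 or above. Since most other genes of the platelet list were far lower than Pf4, its r is not read as a relation with platelet content. Within the control group r was 0.63 with Pf4 and 0.64 with S100a8, and within the swimming group it was -0.61 and -0.07 (n = 6 each, not tested). With Slc4a1 r was 0.69 (adjusted permutation p = 0.0266), rho was 0.62 (adjusted permutation p = 0.0730), and r fell to 0.44 without the 2 farthest tumors. Within the control group it was -0.06. The Slc4a1 values were too close to 0 to pass the filter.

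Among the 12784 other genes with a mean of at least 1 FPKM, none had an r above 0.9 with Hbb-bs over the 12 tumors, whereas the lowest r of a member was 0.924. The most alike were Cd320 (r = 0.877), which codes for a receptor for vitamin B12 uptake, Uba2 (0.865), Ndufb4 (0.843), Gm7964 (0.840), Glo1 (0.829) and Cdkn2aipnl (0.817). The most opposite were Zfp408 (-0.87), Mbd6 (-0.85) and Prrc2b (-0.85). Their levels moved little, for example from 3.96 to 5.45 FPKM for Cd320. These are the extremes of many genes over 12 tumors and are given as a description.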

How the data were processed

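Libraries of 12 CT-26 tumors were sequenced by the authors. Reads were mapped with HISAT2 2.0.5 and quantified with StringTie 1.3.3. The methods name hg38, the submitters' processing notes list hg38 and GRCm38, and the deposited files list mouse Ensembl identifiers. The deposited FPKM values had been divided by gene length and library depth by the authors. Names and coordinates are from GENCODE M21 on GRCm38, matched by identifier (30542 of 30630 named), and promoter windows are from RefSeq GRCm38.p6.

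Expression was compared on log2(FPKM + 1), which understates changes of low genes such as Alas2, after genes reaching 0.1 FPKM in fewer than 6 tumors had been removed. limma 3.58.1 (R 4.3.3) was used with a mean-variance trend, the 2 groups, no covariate and Benjamini-Hochberg adjustment over all 19018 genes, and was tested on simulated data. Single values were compared by two-sided exact permutation tests (smallest p 0.00216), and correlations by two-sided tests with 100000 permutations (scipy 1.17.1). Alternatives were other pseudocounts, filters and scalings, sample weights, no variance trend, blocks by replicate number, and fits that left out a single tumor. The members and gene lists were chosen with earlier results of these data known. Genes to be named were the members, the 7 markers correlated with Hbb-bs, of each list the 2 genes with the highest mean and those at an unadjusted p below 0.05, and the 6 most and 3 least alike genes, and not all of them are reported here. Other genes were named after their values were seen. The p-values measure the spread between these 12 tumors.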

Additional observations from a re-analysis of the deposited data

Results flagged for a closer look

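Some tumors stood apart from the other 5 of their group by a gap that Dixon's test calls at the 95% level, in 20 of 82 groups of values looked at, where chance gives about 4.1 for independent, normally distributed values. The members vary together, the test was run on linear values, and all 20 were on the high side, so the number found is not read against chance. Swimming 4 accounted for 7 of them, with 324 FPKM of Hba-a1, 247 of Hba-a2, 412 of Hbb-bs, 250.1 of Hbb-bt, 5.37 of Alas2, 1.42 of Hbb-bh1 and 0.0791 of Slc4a1. Another 7 were in control 1, with 166 FPKM of Hba-a1, 103 of Cfd, 44.7 of Fabp4, 275 of Col3a1, 8.66 of Cygb, 53.9 of Hmox1 and 33.5 of Plvap. In control 2 the share of Hba-a1 in alpha globin was 63.6%. Other tumors that stood apart were control 6 with 88.2 FPKM of the muscle gene Acta1, control 4 with 129 of Krt8, swimming 5 with 515 of C1qa and 20.3 of Fabp4, and swimming 6 with 13.8 of S100a8. The causes of these values were not tested.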

How the results depend on the processing

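Of 112 alternatives other than leaving out a tumor, 105 were counted as unchanged. For differences, ratios and correlations this means that the direction and the side of the threshold were kept. For the 5 members all were, with limma p between 0.259 and 0.819. The 105 include 10 alternatives for the count of genes at an unadjusted p below 0.05. That count has no direction, was 729 to 1445, and was judged by its size. Same-numbered tumors of the 2 groups did not deviate together (correlations -0.32 to 0.01), so the numbers were not taken as pairs. With a replicate block, the difference in the log2 ratio of alpha to beta globin was 0.20 with an exact sign-flip p of 0.0938, and the other ratios and members kept their side of the threshold. The r of Slc4a1 with Hbb-bs, past the threshold with all tumors, was 0.66 on centered values and 0.44 without the 2 farthest tumors, both no longer past it. Signs turned for Pf4 (0.18), Acta1 (-0.20) and Col1a1 (-0.0603) without the 2 farthest tumors and for Acta1 with a pseudocount of 0.1 (-0.0107), none of them past the threshold. The cause was not tested. With 1 tumor left out, the count of genes at an unadjusted p below 0.05 was 833 to 1443, the difference of Hba-a1 was -0.57 to 0.0381, of Hba-a2 -0.48 to 0.10, of Hbb-bs -0.74 to -0.14, of Hbb-bt -0.78 to -0.16 and of Alas2 -0.36 to 0.0054, and for each member the lowest was without swimming 4. The sign turned for Hba-a1, Hba-a2 and Alas2. The ratio of alpha to beta globin was 0.17 to 0.27, the Hba-a1 share -1.88 to 0.116 points, the Hbb-bt share -0.82 to 1.012 points, and Alas2 to globin -0.0520 to 0.0968. Genes past an adjusted p of 0.05 in limma were 0 with all tumors (1058 unadjusted), 1 with sample weights, 3 without control 4 and 2 without swimming 1. FPKM values give no counting error.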

Other observations

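Epo, which codes for erythropoietin, was listed at 0 in 4 of the 12 tumors, 2 in each group, and at 4.52 to 12.3 FPKM in the other 8, with no value between. Its exons overlap those of Gnb2 on the same strand in the annotation, and the part of this overlap in the values was not tested.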
